A study of Mus musculus with 10 samples.

Results

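The enzymes that place, copy and remove DNA methylation were followed as 9 genes of the 55809 rows in the count files: Dnmt1, Dnmt3a, Dnmt3b, Uhrf1, Uhrf2, Tet1, Tet2, Tet3 and Mbd2. They were taken by gene name for their function in methylation and its removal, and the rule sets no threshold on expression. In Treg cells the Foxp3 locus carries a conserved intronic element whose loss of CpG methylation accompanies stable Foxp3 expression, so these proteins are often discussed together with the stability of the lineage. DNMT1 copies methylation onto the new strand after replication, and UHRF1 recruits it by binding hemimethylated CpG sites and ubiquitinating histone H3. DNMT3A and DNMT3B methylate unmodified CpG sites, TET dioxygenases oxidize 5-methylcytosine so that it can be lost or excised, and MBD2 binds methylated CpG sites and brings in the NuRD repressor complex.

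Bulk RNA-seq was done on Treg cells taken from spleen and lymph nodes. All mice carried the Foxp3-AID allele, in which an auxin-inducible degron (AID) is joined to the endogenous Foxp3 protein. The 6 R26-TIR1(F74G) libraries came from mice whose ROSA26 allele encodes TIR1(F74G), a plant ubiquitin ligase subunit with a changed auxin pocket, and the 4 R26-WT libraries from mice with an unmodified ROSA26 locus. Both groups received the auxin analog 5-ph-IAA for 14 days, so the comparison asks what differs once the ligase can degrade Foxp3. No R26-TIR1(F74G) library without the drug was included, so an effect of the TIR1 allele itself and that of Foxp3 loss cannot be told apart. In its single-cell data the paper filtered out genes that differed between the genotypes before treatment. Library names number the mice 1 to 10, and the labels give neither age nor sex. According to the study's methods, TIR1 sits behind a loxP-flanked stop cassette that is removed by a Cre recombinase expressed from the Foxp3 allele, which restricts it to cells that have expressed Foxp3. The methods' general sorting scheme takes ZsGreen-positive cells from R26-WT mice and cells positive for both ZsGreen and mCherry, the reporter linked to TIR1, from R26-TIR1(F74G) mice. Where it was used, that gate and the genotype cannot be told apart.

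Libraries held 24158699 to 54795718 counted read pairs. All 10 had 0 to 7 counts of Xist and 3926 to 10683 of Ddx3y. Foxp3 transcripts ranged from 6816 to 11779 normalized counts in R26-WT and from 6778 to 16059 in R26-TIR1(F74G), which does not check the labels, because the degron acts on the protein. Over the 500 most variable genes, 60.5% of the variance lay on a first principal component that did not separate the groups: R26-TIR1(F74G) replicate 7 lay at 24.6 and R26-WT replicates 3 and 4 at -16.8 and -15.5, with the other 7 libraries between -6.88 and 9.12. The second component, with 20.3% of the variance, did separate them, from 4.28 to 9.49 in R26-WT and from -14.9 to 2.45 in R26-TIR1(F74G). The summed level of 8 Treg markers was 185872 to 225046 normalized counts in R26-WT and 176473 to 211771 in R26-TIR1(F74G). Of the markers of other cells, 3 of 6 B cell, 5 of 8 myeloid, 3 of 4 plasma cell and 5 of 6 erythroid genes had a mean count under 10, the threshold for testing, and 1 of 7 CD8 and NK genes did, Ncr1, which was at 0 throughout. The summed level of the B cell list was 846.1 to 1382 normalized counts in R26-WT and 730.5 to 1188 in R26-TIR1(F74G), and the 3 tested B cell genes, none of them called, had log2 fold changes of -0.50 to -0.24. Of the 6 tested CD8 and NK genes, Eomes was called higher in R26-TIR1(F74G) by DESeq2 and edgeR, at a log2 fold change of 1.47 and without overlap, while the list's summed level was 1346 to 1952 in R26-WT and 1411 to 1798 in R26-TIR1(F74G). The summed level of 10 activated Treg markers was 13617 to 14108 in R26-WT and 13855 to 23890 in R26-TIR1(F74G), with 1 of the 10 called higher by DESeq2 and none by edgeR, and that of 8 resting Treg markers was 381603 to 402738 and 367961 to 422764, with 1 of the 8 called higher by DESeq2 and none by edgeR. Over all genes tested, DESeq2 called 1.40% higher, edgeR called 0.373% either way, and 1.57% were higher without overlap. The log2 fold change was positive for 8 of the 10 activated markers (median 0.26, highest 1.73) and for 3 of the 8 resting markers (median -0.02). The part of the cell markers in the results below was not tested. In every gene described below a transcript present in more cells and more transcript per cell cannot be told apart in bulk RNA.

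Among the 9 genes only Uhrf1 differed between the groups by the DESeq2 test, and it was higher in R26-TIR1(F74G). That is 1 of 9, where 1.40% of the 16363 genes tested were called higher, 0.336% were called lower and 1.74% either way at an adjusted p under 0.05. By edgeR's quasi-likelihood test none of the 9 passed, against 0.373% of all genes, and 1 of the 9 had an unadjusted DESeq2 p under 0.05, against 6.86% of all genes. All 9 genes passed the filter of a mean count of at least 10, and the lowest count of any of them in any library was 388, for Tet1. The median log2 fold change was 0.12 over the 9 genes, 0.067 without Uhrf1 and 0.00063 over all genes tested.

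**Figure D1:**
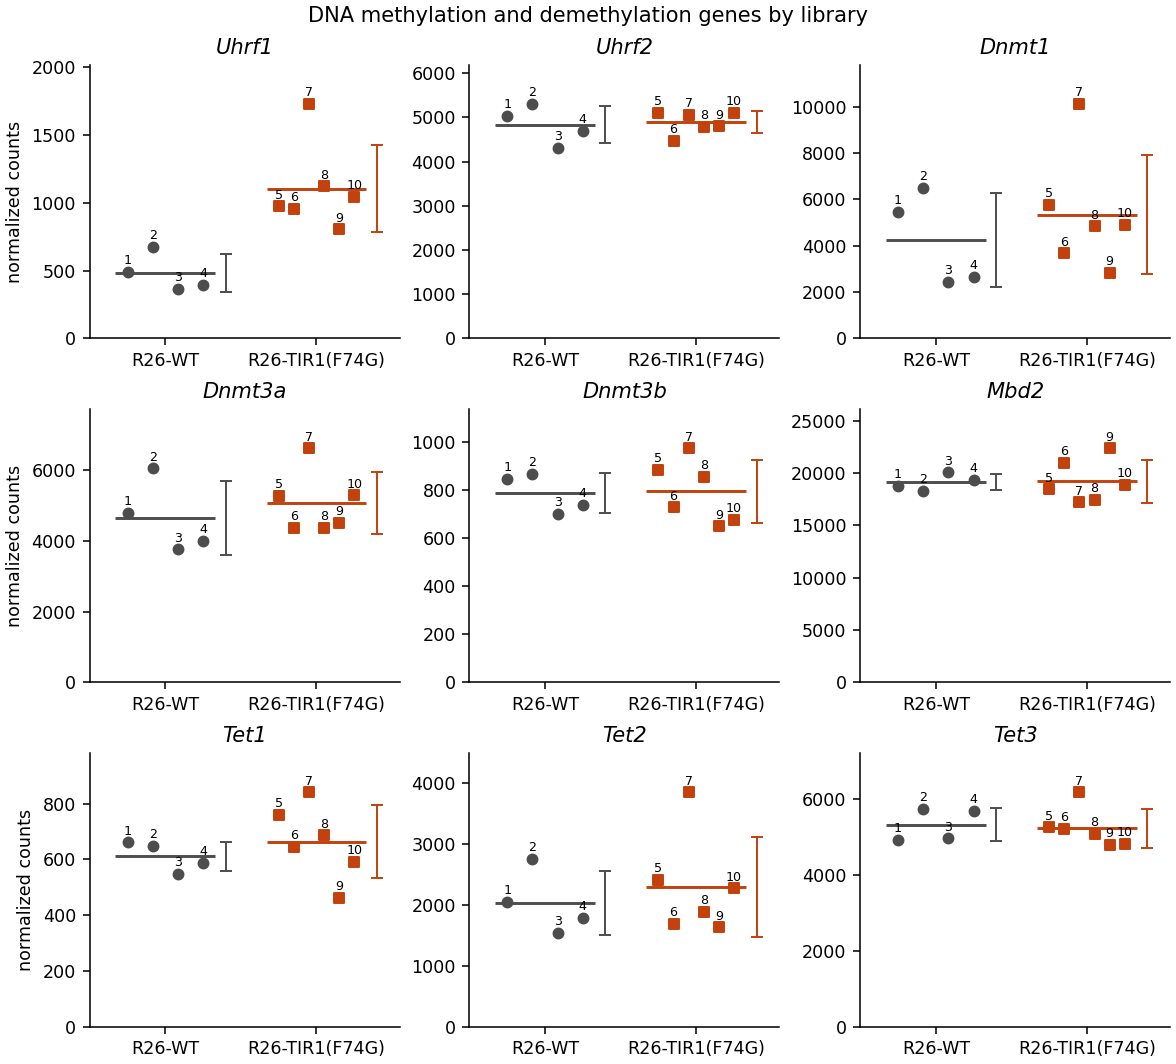
Normalized counts (counts divided by DESeq2 size factors, linear axes from 0) of the 9 genes in each library, with 4 R26-WT libraries as circles and 6 R26-TIR1(F74G) libraries as squares, numbered by replicate. Horizontal lines are group means and error bars 1 SD. Uhrf1 alone shows no overlap between groups (363.0 to 675.9 against 802.5 to 1726), and R26-TIR1(F74G) replicate 7 is highest for Uhrf1, Dnmt1, Dnmt3a, Dnmt3b, Tet1, Tet2 and Tet3 but lowest for Mbd2.

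Uhrf1 encodes the reader of hemimethylated DNA that couples DNMT1 to the replication fork. It lies on chromosome 17 from 56610321 to 56630486 on the plus strand of GRCm39. The 4 R26-WT libraries held 488.9, 675.9, 363.0 and 395.8 normalized counts, and the 6 R26-TIR1(F74G) libraries ran from 802.5 through a median of 1009 to 1726. Every R26-TIR1(F74G) library was above every R26-WT library, as was the case for 1.57% of all genes tested. The mean rose from 480.9 ± 141 (SD, n = 4) to 1103 ± 323 (SD, n = 6), a 2.3-fold difference with a 95% interval of 1.67 to 3.16 (DESeq2 log2 estimate 1.20 ± 0.24 SE, adjusted p 8.94e-05). By edgeR's quasi-likelihood test the log2 fold change was 1.19 with an adjusted p of 0.057, which misses the threshold, and by limma voom the adjusted p was 0.0434. The highest value came from R26-TIR1(F74G) replicate 7, and without that library the log2 fold change was 1.03 (DESeq2 adjusted p 2.69e-05).

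Uhrf2, the paralog of Uhrf1, encodes a protein with the same kind of domains that does not replace UHRF1 in maintenance methylation. Its gene is on chromosome 19 from 30007913 to 30071122, plus strand. The R26-WT libraries held 5033, 5298, 4318 and 4692 normalized counts and the R26-TIR1(F74G) libraries 4474 to 5110 with a median of 4923. The ranges of the groups overlapped almost entirely, and the spread was small, with a coefficient of variation of 8.79% in R26-WT and 5.13% in R26-TIR1(F74G). The log2 fold change was 0.016 with a 95% interval of -0.17 to 0.20, so any difference in Uhrf2 was bounded below a 1.15-fold rise and a fall to 0.891 of the R26-WT level (DESeq2 adjusted p 0.99996). Within a library the log2 ratio of Uhrf1 to Uhrf2 counts was -3.57 to -2.97 in R26-WT and -2.58 to -1.55 in R26-TIR1(F74G). All 6 R26-TIR1(F74G) ratios were above the highest R26-WT ratio, and the group means differed by 1.18. The two-sided exact permutation test gave p = 0.00952, the smallest that 4 against 6 libraries allow, and an adjusted p of 0.0571 over the 6 ratios examined, which misses 0.05.

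**Figure D2:**
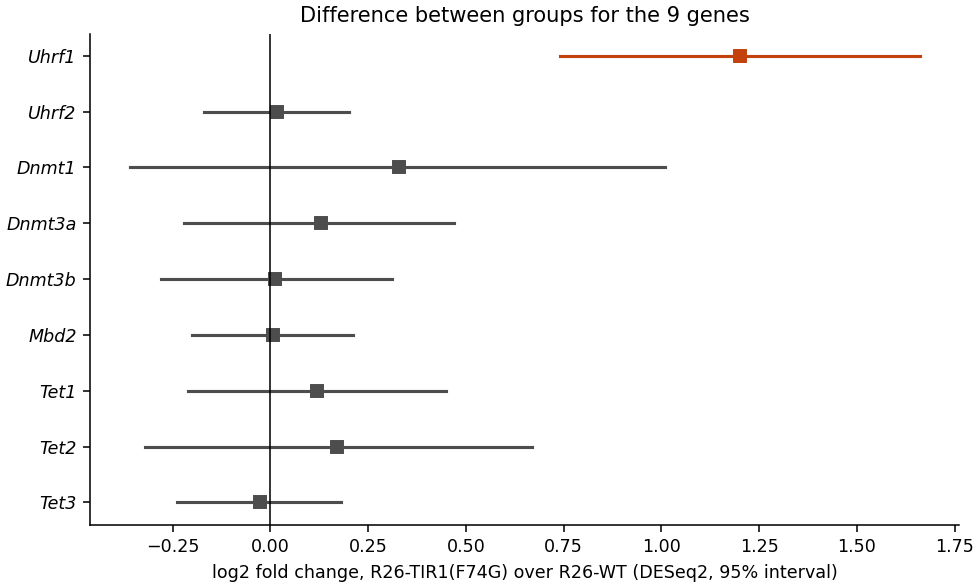
Log2 fold change of R26-TIR1(F74G) over R26-WT for the 9 genes (squares) with the 95% interval of the DESeq2 estimate (lines). Uhrf1 at 1.20 (0.74 to 1.66) is the gene called by DESeq2, and the other 8 intervals include 0, from the narrow one of Uhrf2 (-0.17 to 0.20) to the wide one of Dnmt1 (-0.36 to 1.01).

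The start regions of Uhrf1 and Uhrf2 are shown because Uhrf1 is the gene called by DESeq2 and Uhrf2 is its paralog. The sequences are RefSeq promoter windows from 250 bases before to 50 bases after an annotated start, matched exactly and uniquely to GRCm39, and the count files do not tell the starts apart. Capitals mark 8-base words known as E2F sites, E2F being the family of factors that drives S-phase genes; the words searched were TTTCCCGC, TTTCGCGC, TTTGCCGC and TTTGGCGC on both strands.
Uhrf1, chr17:56611063-56611362, plus strand: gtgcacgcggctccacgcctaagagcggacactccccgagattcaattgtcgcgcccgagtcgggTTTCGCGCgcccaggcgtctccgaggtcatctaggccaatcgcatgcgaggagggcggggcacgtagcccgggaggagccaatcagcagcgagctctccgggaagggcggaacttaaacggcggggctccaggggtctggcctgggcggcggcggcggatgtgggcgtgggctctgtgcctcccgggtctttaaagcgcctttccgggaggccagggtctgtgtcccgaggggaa
Uhrf2, chr19:30007663-30007962, plus strand: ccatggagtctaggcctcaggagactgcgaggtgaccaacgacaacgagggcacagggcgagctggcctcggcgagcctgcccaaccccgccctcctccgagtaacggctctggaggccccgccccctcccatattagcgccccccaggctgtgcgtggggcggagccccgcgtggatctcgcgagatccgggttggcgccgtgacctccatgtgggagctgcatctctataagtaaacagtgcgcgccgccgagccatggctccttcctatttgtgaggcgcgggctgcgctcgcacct

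The Uhrf1 window shown holds 33 CpG sites and 1 E2F word, TTTCGCGC, that begins 185 bases before the start. A second Uhrf1 window, 976 bases upstream, holds 12 CpG sites and none of the words. The Uhrf2 window holds 28 CpG sites and none of the words. Over all 32851 windows of the table the median was 7 CpG sites, and 2.26% of windows held a word.

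Dnmt1, the maintenance methyltransferase, was the most variable of the 9 genes (chromosome 9, 20818505 to 20871184, minus strand). The R26-WT libraries held 5447, 6500, 2421 and 2664 normalized counts, so replicates 1 and 2 were more than double replicates 3 and 4. The R26-TIR1(F74G) libraries ran from 2808 through a median of 4860 to 10105, and the ranges overlapped. The coefficient of variation was 47.7% in R26-WT and 47.8% in R26-TIR1(F74G), and the DESeq2 log2 fold change was 0.33 (SE 0.35) with an adjusted p of 0.99996. The 95% interval of -0.36 to 1.01 reaches from a fall to 0.781 of the R26-WT level to a 2.01-fold rise, so a change within those bounds could not be resolved. The lowest and the highest Dnmt1 values fell in the libraries at the ends of the first principal component, R26-WT replicates 3 and 4 and R26-TIR1(F74G) replicate 7. Without R26-TIR1(F74G) replicate 7 the log2 fold change was 0.043, and without R26-WT replicate 2 it was 0.61, neither called.

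Dnmt3a and Dnmt3b, the de novo methyltransferases, did not pass the test. Dnmt3a (chromosome 12, 3856007 to 3964443, plus strand) held 4801, 6048, 3759 and 3990 normalized counts in R26-WT and 4372 to 6617, median 4892, in R26-TIR1(F74G). Its log2 fold change was 0.13 with a 95% interval of -0.22 to 0.47. Its antisense transcript Dnmt3aos overlaps 0.799% of its exon bases, and counting used no strand option. Dnmt3b (chromosome 2, 153491370 to 153529650, plus strand) was 786.6 ± 81.3 normalized counts (SD, n = 4) in R26-WT and 793.3 ± 129 (SD, n = 6) in R26-TIR1(F74G). Its log2 fold change was 0.012 with a 95% interval of -0.28 to 0.31. The ratio of Dnmt3b to Dnmt3a differed by -0.13 on the log2 scale and that of Dnmt1 to Dnmt3a by 0.20 (two-sided exact permutation p = 0.333 and 0.495, adjusted p 0.495 for both).

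Of the TET dioxygenases, which oxidize 5-methylcytosine, none passed the test. Tet2 (chromosome 3, 133169440 to 133250900, minus strand) spread most, with 2048, 2763, 1542 and 1782 normalized counts in R26-WT and 1631 to 3851, median 2082, in R26-TIR1(F74G). The value of 3851 was that of replicate 7, and the other 5 R26-TIR1(F74G) libraries lay between 1631 and 2415, within the R26-WT range. Its log2 fold change was 0.17 (SE 0.25) with all libraries and -0.039 without that one.

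Tet3 (chromosome 6, 83339355 to 83436066, minus strand) was 5319 ± 441 normalized counts (SD, n = 4) in R26-WT and 5219 ± 503 (SD, n = 6) in R26-TIR1(F74G). Its log2 fold change was -0.027 with a 95% interval of -0.24 to 0.18. Tet1 (chromosome 10, 62640349 to 62744775, minus strand) was the lowest gene of the family at 611.8 ± 52.6 (SD, n = 4) and 664.2 ± 132 (SD, n = 6). Its log2 fold change was 0.12 with a 95% interval of -0.21 to 0.45. The log2 ratio of Tet2 to Tet3 differed by 0.17 between the groups (two-sided exact permutation p = 0.467, adjusted p 0.495).

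Mbd2, the methyl-CpG reader of the NuRD complex (chromosome 18, 70701260 to 70759202, plus strand), had the most counts. It held 18746, 18322, 20073 and 19351 normalized counts in R26-WT and 17191 to 22363, median 18655, in R26-TIR1(F74G). The groups overlapped, and the log2 fold change was 0.0063 with a 95% interval of -0.20 to 0.21, that is between 0.871 and 1.16 of the R26-WT level. In replicate 7, where the other genes except Uhrf2 peaked, Mbd2 was at its minimum.

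To compare levels between genes, normalized counts were divided by exon length in kb. In R26-WT the order was Mbd2 at 5950 ± 237 normalized counts per kb, Dnmt1 at 577.2 ± 275, Uhrf2 at 562.9 ± 49.5, Tet3 at 318.6 ± 26.4, Dnmt3a at 279.4 ± 62.1, Dnmt3b at 154.0 ± 15.9, Tet2 at 120.5 ± 31.3, Uhrf1 at 112.9 ± 33 and Tet1 at 39.6 ± 3.4 (SD, n = 4). Across libraries the ranges of Dnmt1 and Uhrf2, of Tet3 and Dnmt3a, and of Dnmt3b, Tet2 and Uhrf1 overlapped. The range of Dnmt1 also reached those of Tet3 and Dnmt3a. Such overlap does not exclude a constant order within each library, which is given below for Uhrf1 only. Uhrf1 was eighth of the 9 in R26-WT and sixth in R26-TIR1(F74G), where it reached 259.0 ± 75.8 per kb (SD, n = 6) and its range overlapped those of Dnmt1, Tet3, Dnmt3a, Dnmt3b and Tet2. Read library by library, Uhrf1 per kb was below Dnmt3b and Tet2 in all 4 R26-WT libraries and above both in all 6 R26-TIR1(F74G) libraries, and it was above Dnmt3a in 2 and above Tet3 in 1 of those 6. No other gene changed its place except Dnmt3b and Tet2, each displaced by Uhrf1. TPM gave the same order in both groups. Exon length is the union of annotated exons, so a gene of which the cells use a short isoform is understated on this scale.

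The rest of the methylation machinery was read from the same fit as a list of 60 genes, of which 57 were tested. Dppa3 and Dnmt3l were at 0 counts in all libraries and Cxxc4 at 0 to 1, below the filter. DESeq2 called 5 of the 57 higher, where 1.40% of all genes tested were, and none lower, where 0.336% were. An unadjusted p under 0.05 was found for 7 of the 57, against 6.86% of all genes, edgeR called 2, against 0.373%, and limma voom called 2. The median log2 fold change of the 57 was 0.018, with 31 values above 0 and 26 below. Of the 5 called genes 4 were among the 6 tested partners of maintenance methylation, whose median log2 fold change was 0.63. Outside this role 1 of 51 was called, a share near that of all genes, and the median was -0.0048. The list and its roles were set with earlier results of these data known, so this grouping is a description and carries no test.

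Among the maintenance partners, Pclaf encodes a PCNA-binding protein whose ubiquitinated form recruits DNMT1. Its R26-WT libraries held 137.8, 184.0, 127.8 and 83.7 normalized counts and its R26-TIR1(F74G) libraries 273.4 to 629.6, median 435.4. The groups did not overlap, and the rise was 3.26-fold with a 95% interval of 2.29 to 4.64 (DESeq2 adjusted p 3.8e-08, edgeR adjusted p 0.0189).

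Hells encodes a chromatin remodeler needed for methylation of repeats. It held 470.6, 568.7, 365.4 and 431.3 normalized counts in R26-WT and 660.8 to 917.5, median 787.5, in R26-TIR1(F74G), without overlap. The rise was 1.71-fold with a 95% interval of 1.4 to 2.1 (DESeq2 adjusted p 6.45e-05, edgeR adjusted p 0.0429). Cdca7, the zinc finger partner that activates HELLS, rose 1.4-fold from 2161 ± 318 (SD, n = 4) to 3026 ± 241 (SD, n = 6) normalized counts, again without overlap (DESeq2 adjusted p 0.00696, edgeR adjusted p 0.115). The DESeq2 call was lost without R26-WT replicate 3 (adjusted p 0.0774) or 4 (adjusted p 0.0902).

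Lig1, the replicative DNA ligase that UHRF1 also binds, rose 1.91-fold from 845.5 ± 183 (SD, n = 4) to 1615 ± 350 (SD, n = 6) normalized counts. Its groups overlapped through R26-TIR1(F74G) replicate 9 at 971.2, below the 2 highest R26-WT libraries (DESeq2 adjusted p 0.00102, edgeR adjusted p 0.0862). The other tested partners were Cdca7l, at a log2 fold change of 0.33 (DESeq2 adjusted p 0.214), and Usp7, the deubiquitinase that stabilizes UHRF1 and DNMT1, at 0.16 (DESeq2 adjusted p 0.99996).

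**Figure D3:**
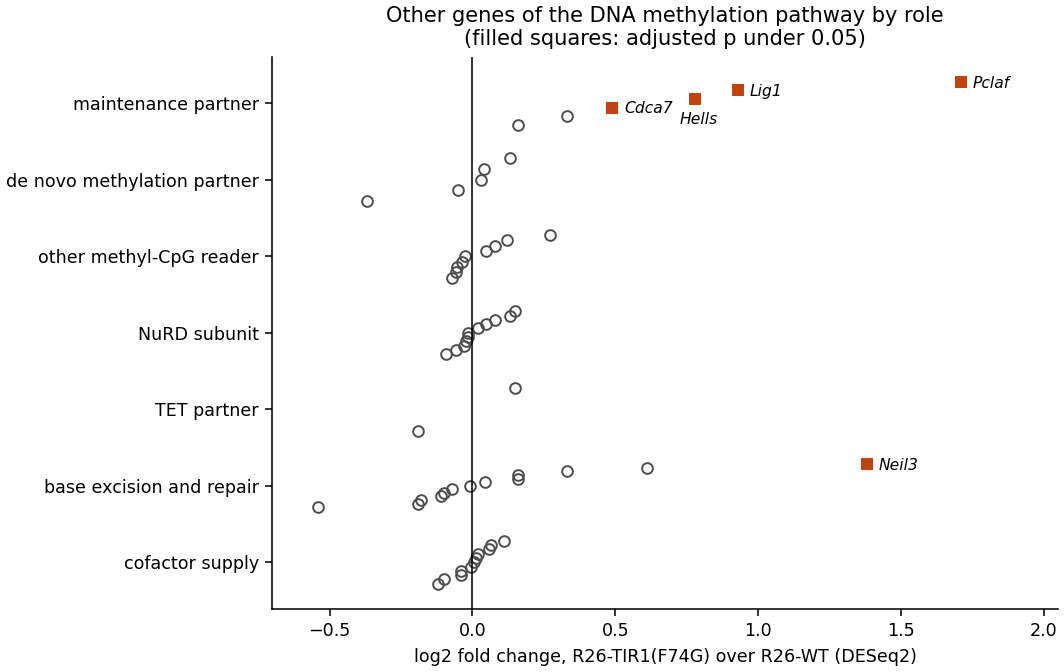
Log2 fold change (R26-TIR1(F74G) over R26-WT, DESeq2) of the 57 tested genes of the pathway list, 1 point a gene, grouped by role. Filled squares are the 5 genes with a DESeq2 adjusted p under 0.05, 4 of them maintenance partners (Cdca7 0.49, Hells 0.78, Lig1 0.93, Pclaf 1.71) and the other Neil3 at 1.38, and open circles are the rest, from -0.54 to 0.61.

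In base excision and repair, the route by which oxidized methylcytosine is replaced, 1 of 13 genes was called. Neil3, a DNA glycosylase expressed in dividing cells, held 54.9, 84.6, 36.6 and 35.5 normalized counts in R26-WT and 80.4 to 317.6, median 103.0, in R26-TIR1(F74G). The groups overlapped, and replicate 7 alone was at 317.6, more than double the next library at 123.3. By DESeq2 it differed by 1.38 ± 0.40 SE on the log2 scale (adjusted p 0.0408), and edgeR gave an adjusted p of 0.305. Leaving out each library in turn, 4 of 10 DESeq2 fits kept the call. It was lost without R26-TIR1(F74G) replicate 7 (log2 fold change 0.93, DESeq2 adjusted p 0.0709), and also without R26-TIR1(F74G) replicate 8 or 9 or R26-WT replicate 1, 3 or 4, where the DESeq2 adjusted p was 0.0613, 0.0629, 0.123, 0.244 and 0.257 in that order. Tdg, the glycosylase that excises oxidized methylcytosine, and Gadd45a were named after their values were seen. On the log2 scale Tdg differed by 0.61 ± 0.31 SE, with a DESeq2 adjusted p of 0.75. Gadd45a, a stress-response gene implicated in active demethylation, differed by -0.54 ± 0.16 SE, with a DESeq2 adjusted p of 0.0589 and an edgeR adjusted p of 0.244. It was called lower with 1 surrogate variable, with the trend on gene length removed and without R26-WT replicate 2. In no other setting was any gene of the pathway list called lower.

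No gene passed in the 5 other roles. Among 5 tested partners of de novo methylation the smallest p belonged to Dnmt3c, a male germline enzyme that was barely detected at 1 to 17 counts, with a log2 fold change of -0.37 (SE 0.50). Among the 9 other methyl-CpG readers it belonged to Mbd4, a thymine glycosylase, at 0.27 (SE 0.17), and among 11 subunits of NuRD, the complex MBD2 recruits, to Mta2 at 0.15 (SE 0.14). Of the 2 tested TET partners Cxxc5 was at -0.19 (SE 0.21) and Ogt at 0.15 (SE 0.17). Among 11 genes that supply or limit cofactors it was Mat2b, a regulator of S-adenosylmethionine synthesis, at -0.12 (SE 0.12). All 38 genes of these roles had a DESeq2 unadjusted p above 0.05, and edgeR called none of them.

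The E2F words were also counted in the windows of the rest of the 9 genes and of the 5 called pathway genes. Of the 9 genes, 8 had a window (13 windows in all, from 2 to 57 CpG sites, median 28), and Mbd2 had none. A word was present in 2 of these 8 genes, Uhrf1 and Dnmt1, against 2.6% of the 27025 genes in the table, and in 4 of the 5 called genes of the pathway list, Hells, Cdca7, Lig1 and Pclaf. No share was taken for the uncalled genes of that list. All 4 words contain a CpG site, and the median over all windows was 7 CpG sites against 28 for the 9 genes. The 2.6% is thus no matched background, and these shares carry no test. The stretches below show the word in its setting for genes of the maintenance step. Not shown are a second word of Dnmt1, which begins 33 bases after the same start, and the word of Lig1, which begins 26 bases after one of its starts.
Dnmt1, chr9:20864105-20864164, minus strand: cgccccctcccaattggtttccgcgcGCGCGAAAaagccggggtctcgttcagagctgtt
Hells, chr19:38919346-38919405, plus strand: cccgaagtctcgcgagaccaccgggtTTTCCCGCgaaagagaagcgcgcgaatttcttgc
Cdca7, chr2:72306466-72306525, plus strand: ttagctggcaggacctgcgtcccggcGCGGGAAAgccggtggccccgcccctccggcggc
Pclaf, chr9:65797574-65797633, plus strand: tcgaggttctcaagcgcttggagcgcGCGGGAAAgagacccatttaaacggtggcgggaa

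GCGCGAAA and GCGGGAAA are the reverse complements of TTTCGCGC and TTTCCCGC. The word begins 219 bases before the start of Dnmt1 shown, 62 before that of Hells, 71 before that of Cdca7 and 5 before that of Pclaf. That start of Dnmt1 lies 7265 bases downstream of the annotated start of the gene. The other Dnmt1 windows, with 2 and 12 CpG sites, held none of the words, nor did the other Lig1 windows, with 5 and 21. A match describes the letters only; binding was not measured. Among the other windows, Tet2 had the most CpG sites, 57, and no word.

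The genes most like Uhrf1 over the 10 libraries, among 12609 genes with a mean of at least 50 normalized counts, were Gucy1b1 (Pearson r 0.990 of log2 levels), Ncapg (0.984), Top2a (0.984), Cdc6 (0.981) and Hells (0.978). Ncapg encodes a condensin subunit, Top2a the topoisomerase of dividing cells and Cdc6 a replication licensing factor, whereas Gucy1b1 encodes a subunit of soluble guanylate cyclase. Their log2 fold changes were 1.44, 1.24, 1.61, 1.85 and 0.78. The libraries share their group difference and their order on the first component, so these correlations are a description and carry no test.

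Genes of cell division moved in the same comparison. Of a list of 18, DESeq2 called 13 higher, against 1.40% of all genes, and none lower, and edgeR called 5, against 0.373%; the median log2 fold change was 1.24, and the list's summed level was 27632 to 39211 normalized counts in R26-WT and 39127 to 56906 in R26-TIR1(F74G). The mean log2 level of the list was 9.05 ± 0.419 (SD, n = 4) in R26-WT and 10.13 ± 0.255 (SD, n = 6) in R26-TIR1(F74G), with no overlap. Relative to the list mean, Uhrf1 was at -0.18 ± 0.247 (SD, n = 4) in R26-WT and -0.06 ± 0.213 (SD, n = 6) in R26-TIR1(F74G), a difference of 0.12 (two-sided exact permutation p = 0.476, adjusted p 0.495). That difference depended on the genes in the list: against 7 replication fork and licensing genes alone, Pcna and Mcm2 to Mcm7, it was 0.80 (two-sided exact permutation p = 0.00952, unadjusted), and against the other 11, which include Rrm2 and Tyms of nucleotide synthesis, it was -0.32 (two-sided exact permutation p = 0.19, unadjusted). Adjusted over the 6 ratios with that shorter list in place of the whole, these were 0.0286 and 0.381; with either shorter list the Uhrf1 to Uhrf2 ratio was adjusted to 0.0286 as well, so these values are not comparable with those of the whole list.

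Dnmt1 was lower relative to the division list in R26-TIR1(F74G), by a difference that did not pass the correction. Its log2 ratio to the list mean was 2.88 ± 0.371 (SD, n = 4) in R26-WT and 2.14 ± 0.508 (SD, n = 6) in R26-TIR1(F74G), and 4 of the 6 R26-TIR1(F74G) libraries were below the lowest R26-WT library. The difference of -0.74 had a two-sided exact permutation p of 0.0381 and an adjusted p of 0.114, but it too depended on the genes in the list. Against Pcna and Mcm2 to Mcm7 the Dnmt1 difference was -0.055 (two-sided exact permutation p = 0.848) and against the other 11 it was -1.18 (two-sided exact permutation p = 0.00952, 0.0286 adjusted with that shorter list). Whether the share of dividing cells accounts for the level of either gene was not tested.

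**Figure D4:**
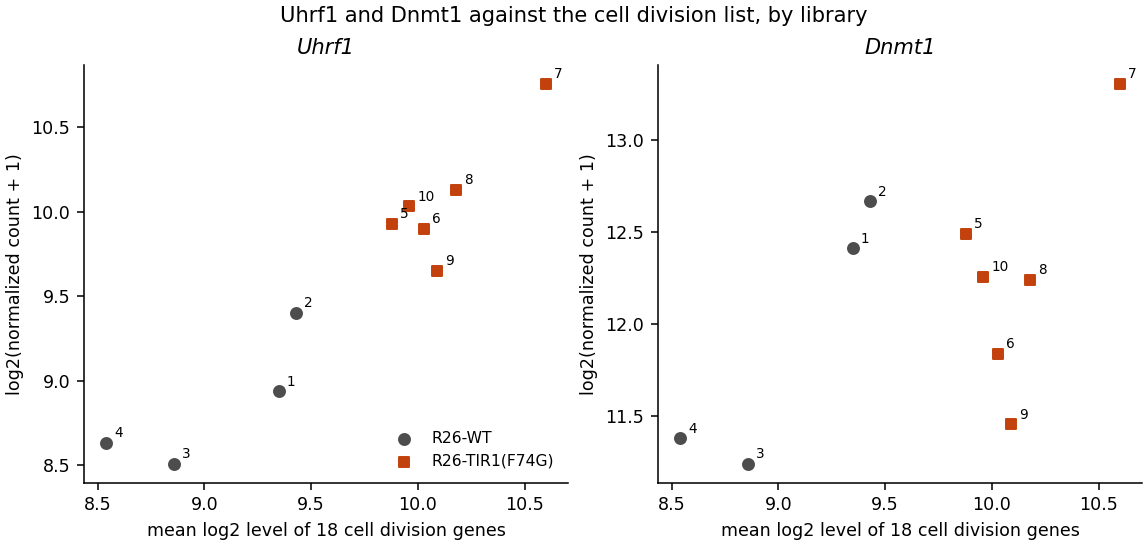
Log2(normalized count + 1) of Uhrf1 (left) and Dnmt1 (right) against the mean log2 level of 18 cell division genes, 1 point a library, circles R26-WT and squares R26-TIR1(F74G), numbered by replicate. The list mean lies between 8.54 and 9.43 in R26-WT and between 9.88 and 10.60 in R26-TIR1(F74G); Uhrf1 is set apart by group as the list is, and Dnmt1 overlaps between the groups.

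Within the 6 R26-TIR1(F74G) libraries, Uhrf1 and the list mean had a Pearson r of 0.84 and a Spearman rho of 0.49 (exact permutation p = 0.147 and 0.356; adjusted over the 2 relations, 0.267 and 0.711). Without replicates 7 and 5, the libraries farthest from the median of the list mean, r was 0.11 over the 4 that remained, whose list means spanned 9.96 to 10.18. For Dnmt1 r was 0.63 and rho 0.03 (exact permutation p = 0.267 and 1; adjusted, 0.267 and 1), and r was -0.08 without the same libraries. No such relation was computed within the 4 R26-WT libraries.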

How the data were processed

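Treg cells from 10 mice were analyzed, 4 R26-WT and 6 R26-TIR1(F74G). Per the file headers, the authors counted read pairs per gene name with featureCounts 2.1.1, using GENCODE M30 (GRCm39), primary alignments, both ends mapped, a mapping quality of at least 30 and no strand option. The deposited values are raw counts, 1 library a file. The study's methods name STAR as the aligner, whereas the submitters' processing notes list Bowtie2. Per the labels, cDNA from small RNA inputs was amplified without named molecular identifiers, so counting error is a lower limit of technical error.

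Counts were tested with DESeq2 1.42.0 (~ genotype, R 4.3.3) over the 16363 genes whose mean count was 10 or more, with Benjamini-Hochberg adjustment over all of them and a threshold of 0.05. This is the design of the study's methods; edgeR 4.0.16 (quasi-likelihood test with TMM) is given beside it. Intervals are the estimate ± 1.96 SE. For normalized counts, each count was divided by its library's DESeq2 size factor. The 6 within-library ratios used log2(normalized count + 1) and two-sided exact permutation over the 210 splits (scipy 1.17.1). The main DESeq2 and edgeR fits were also run on simulated counts with known changes, drawn without variation shared between genes. The other fits were not.

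Alternatives were edgeR, limma voom (limma 3.58.1), TMM factors in DESeq2, other filters, 1 surrogate variable (sva 3.50.0), removal of the trend on gene length, and leaving out each library. The 21 pairs of replicates differed by more than sampling noise (chi-square per degree of freedom 10.3 to 239). In R26-WT, replicates 1 and 2 gave 26.6 and replicates 3 and 4 gave 15.3, while pairs across these gave 122 to 238. The 4 R26-WT libraries were thus alike in pairs, a limit on their SDs and on the tests. In R26-TIR1(F74G) the pairs ran from 10.3 to 239. Named pathway genes were those called by DESeq2 and, in each role with no call, the gene with the smallest p; exceptions are stated. The 9 genes and all lists were chosen with earlier results of these data known.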

Additional observations from a re-analysis of the deposited data

Results flagged for a closer look

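In 54 groups of values (the 9 genes, the 10 named pathway genes, the ratios, the division list and the total counts, each by genotype), 5 had a library set apart from the rest, where chance gives about 1 in 20, or 2.7. Each was the highest of 6 R26-TIR1(F74G) libraries, with a gap to the next library, as a share of the whole range, above the 95% critical value of Dixon's test. In replicate 7 the share was 0.657 for Uhrf1 (1726 normalized counts against 802.5 to 1120), 0.647 for Tet2 (3851 against 1631 to 2415), 0.668 for Tet3 (6170 against 4790 to 5249) and 0.819 for Neil3 (317.6 against 80.4 to 123.3). In replicate 9 it was 0.658 for Cxxc5 (222.8 against 137.0 to 166.4). Replicate 7 also lay farthest out on the first principal component, at 24.6, and its part in these values was not tested. Without it the log2 fold change of Uhrf1 was 1.03 and still called by DESeq2, and that of Neil3 was 0.93 and no longer called, as in 5 of the 9 fits without another library.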

How the results depend on the processing

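Uhrf1 was the gene called in 6 of the 7 other whole-library settings and in all 10 DESeq2 fits that left out a library (log2 fold change 1.03 to 1.41); edgeR called 0 of the 9 genes, and its fits that left out a library called Uhrf1 in 2 of 10 (adjusted p 0.032 to 0.199). Calls in the pathway list went from 5 to 2 by edgeR, 2 by limma voom, 7 with a surrogate variable and 6 with the length trend removed, the last 2 with 1 lower, and ran from 3 to 6 when a library was left out; calls over all genes were 284, but 61 by edgeR, 67 by limma voom, 743 with a surrogate variable and 187 to 346 when a library was left out. Whichever library was left out, DESeq2 called 1 of the 9 genes. Uncalled genes near 0 changed sign: Dnmt3b was -0.0059 by limma voom, -0.059 with a surrogate variable and -0.057 with the length trend removed, Uhrf2 -0.01 and -0.059 in the last 2 of these, Tet2 -0.0038 with a surrogate variable, and Mbd2 -0.005 by limma voom and -0.012 with the length trend removed. Without a change of sign, a surrogate variable moved Dnmt1 to 0.10, Dnmt3a to 0.047, Tet1 to 0.035, Tet3 to -0.058 and Mbd2 to 0.038, and removing the length trend moved Dnmt3a to 0.051, Tet1 to 0.013, Tet2 to 0.065 and Tet3 to -0.13, none of them called. Leaving out a library gave -0.056 to 0.067 for Dnmt3b, -0.034 to 0.063 for Uhrf2, -0.039 to 0.36 for Tet2, -0.081 to 0.011 for Tet3, -0.039 to 0.037 for Mbd2, 0.043 to 0.61 for Dnmt1, 0.035 to 0.28 for Dnmt3a and 0.038 to 0.21 for Tet1. The difference of the log2 ratio of Uhrf1 to the division list was 0.80 against Pcna and Mcm2 to Mcm7, -0.32 against the other 11 genes and 0.24 on TMM-scaled CPM, and that of Dnmt1 was -0.055, -1.18 and -0.55. Without a library, these differences were 0.036 to 0.21 for Uhrf1 and -0.91 to -0.58 for Dnmt1, 1.05 to 1.31 for Uhrf1 to Uhrf2, 0.07 to 0.34 for Dnmt1 to Dnmt3a, -0.22 to -0.074 for Dnmt3b to Dnmt3a and 0.056 to 0.29 for Tet2 to Tet3. A factor common to a library cancels in a within-library ratio, so the ratios on CPM differed only through the 1 added before the log2. The cause of the other changes was not tested. No paired analysis was possible because R26-WT holds replicates 1 to 4 and R26-TIR1(F74G) replicates 5 to 10.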
